A study of Mus musculus with 12 samples.

Results

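The comparison was of mammary tumours of the strains YC and YD with those of the strains NDL25 and YE, in 8 of the 12 tumour RNA pools of the series. The 4 pools titled YC or YD formed one side and the 4 titled NDL25 or YE the other. These sides were chosen on overall expression of the same pools, on which they lie apart. Every value of the difference between the sides is therefore a description and carries no test. All mice were female and had borne tumours for 6 weeks. All carried a neu (rat ErbB2) transgene with an activating deletion outside the membrane (NDL), under the MMTV promoter, which drives expression mainly in mammary epithelium. NDL25 is the parental strain MMTV/neu NDL2-5. YC, YD and YE are MMTV/neundl strains with an altered receptor, as are the other 2 strains, YB and NYPD, which are given only for place. From each strain 10 tumours were combined into 2 pools of 5 tumours, so the spread between pools is smaller than that between mice. Each pool was read on 2 two-colour arrays with the dyes exchanged, against a commercial reference RNA of mixed mouse cells.

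As background, ErbB2 is a receptor tyrosine kinase whose tail carries tyrosines that are phosphorylated once the receptor is active. Each phosphorylated site recruits its own adaptor proteins, which pass the signal to the ERK and PI3-kinase pathways among others. The NYPD receptor lacks these sites, a different one of them is restored in each of YB, YC, YD and YE, and the parental NDL receptor carries all of them. The comparison places tumours of a pair of single-site receptors against those of another single-site receptor and of the intact tail.

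Values are log2 ratios of tumour over reference, so a value of 1 is a level 2-fold above the reference, and they compare pools for 1 gene but not genes with each other. The labels do not give the dye of the tumour RNA. It was read from marker genes: the milk genes Csn2 and Lalba pointed to one channel and the fetal liver gene Afp to the other on all 24 arrays. The 16 arrays of the 8 pools had median intensities of 364.8 to 763.5 in the tumour channel and of 43 to 64 in the background around the spots, and 97.28% to 98.85% of the spots were well above background. The epithelial markers Krt8, Krt18, Epcam, Cdh1 and Elf5 were above the reference in all 8 pools, from 1.41 for Krt18 to 5.43 for Elf5. Erbb2 on its brightest probe was at 3.42 to 3.97 in 7 pools and at 1.64 in NDL25 pool 1. Its other 2 probes did not show this gap, with NDL25 pool 1 at 0.97 and -0.01 and the other 7 pools at 0.45 to 0.91 and 0.08 to 0.24. No probe was known to read the transgene alone, so none is taken as its measure.

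The scanned images were processed in 3 sessions of the feature extraction software, which are neither RNA extractions nor scans, and session ran partly with strain. Both YD pools, both YE pools and the first array of YC pool 2 were of session 1. Both NDL25 pools, YC pool 1 and the second array of YC pool 2 were of session 2. Each session therefore held pools of both sides, YC and YD against YE in session 1 and YC against NDL25 in session 2. Both differences are given for many but not all of the genes named below. YC pool 2 was placed in session 1 by its first array. NDL25 and YE each lay in a single session, and between them the session and the strain cannot be told apart.

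On values centred per gene, the correlation across genes between pools of the same side ran from -0.228 to 0.532 with a median of 0.0240 over 12 pairs. Between pools of opposite sides it ran from -0.738 to 0.279 with a median of -0.357 over 16 pairs. Exactly 2 of those 16 pairs were above 0, and both held YE pool 1, which had 0.264 with YC pool 1 and 0.279 with YD pool 1. YE pool 1 was also the pool nearest to the other side on the first principal component, which held 32.6% of the variance. It lay at -4.51, against -13.7 to -28 in NDL25 and YE pool 2 and 13.3 to 20.7 in the 4 YC and YD pools. The second component, with 27.3%, followed pool number in YC and YD: pools 1 were at 17 and 13.6 and pools 2 at -20.3 and -24.4. YE pool 1 was at 26.1 and YE pool 2 at 2.09 on it.

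**Figure D1:**
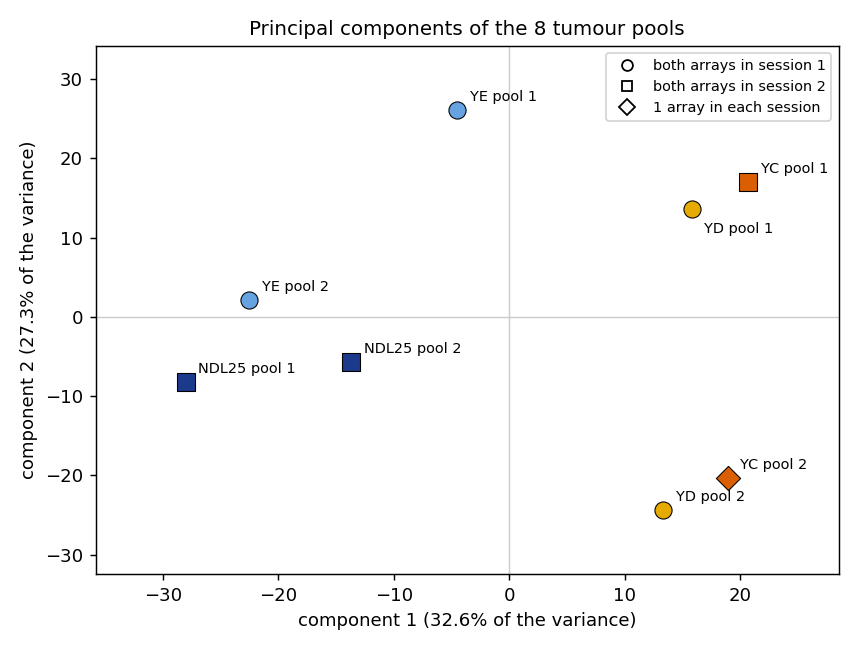
First and second principal components of the 8 pools, with the share of the variance on each axis and colours for strains. Symbols give the software sessions in which the images of the 2 arrays of a pool were processed. The YC and YD pools lie at 13.3 to 20.7 on the first component and all NDL25 and YE pools below 0, with YE pool 1 nearest to 0 at -4.51.

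Across 28351 genes, 1471 (5.19%) were higher in all 4 YC and YD pools than in all 4 NDL25 and YE pools, and 1816 (6.41%) were lower in all of them. Most of these differences were small, with medians of 0.285 and -0.189 on the log2 scale. A difference of at least 2-fold between the means was reached by 50 of the higher genes (0.176% of all genes) and 38 of the lower genes (0.134%), called separated genes below. The threshold cut a continuous range: Fmnl2 and Itprid1 at -1.01 and Inha at -1.02 were just inside it, and St8sia6, A930025H08Rik and Fry at -0.9992, -0.9937 and -0.9878 just outside. Because no pools overlap in these genes, their sign in each session and in YD minus YE was fixed by the choice, and only the sizes within sessions are informative. With 1 pool left out there were 50 to 76 higher and 33 to 59 lower separated genes. Genes without overlap then numbered 1829 to 2332 higher and 2321 to 2795 lower. Leaving out any pool can only add genes without overlap, so this rise is not a trait of the pool left out. The share of higher genes among the separated ones was 56.8%, but 74.4% with scale normalization between arrays and 72.3% in the authors' deposited ratios. Among all genes without overlap it was 44.8%, and 57.1% with median centring in place of loess.

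The strains outside the comparison took no single place in these genes. Of the 50 higher genes, the YB mean lay nearer to YC and YD than to NDL25 and YE for 35 and the NYPD mean for 43. Of the 38 lower genes these counts were 23 and 27. All 4 YB and NYPD pools lay beyond every NDL25 and YE pool, in the direction of YC and YD, for 28 of the higher and 12 of the lower genes.

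Krt19, Pkp1, Lamb3 and Serpinb5 were among the separated genes that were higher in YC and YD. Krt19, a keratin of simple and luminal epithelium, was at -1.99 and 0.07 in the YC pools and -1.09 and -0.54 in the YD pools, against -2.23 and -2.80 in NDL25 and -3.07 and -3.09 in YE. The sides did not overlap, but YC pool 1 came close to NDL25 pool 1, and the difference of 1.91 ± 0.45 (SE) was 2.56 in session 1 and 0.53 in session 2. Each SE is from a fit of 6 strain means to all 12 pools. It holds the spread between pools of a strain, YB and NYPD included, but not that between the 2 strains of a side. Pkp1, a desmosome protein, had means of 1.5 ± 0.63 (SD, n = 4 pools) and -0.09 ± 0.50, with differences of 2.06 and 0.69 in the sessions. Lamb3, a chain of the basement membrane protein laminin-332, had 0.98 ± 0.43 and -0.54 ± 0.48, with differences of 1.88 and 0.86 in the sessions. Serpinb5, the epithelial serpin maspin, was high in every pool, with 3.47 ± 0.17 and 2.08 ± 0.43. For these 3 genes YE pool 2 was the lowest of the 8 pools. Dsg1c, a desmosomal cadherin named after its values were seen, went the other way at -1.14 ± 0.30.

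Ptx3, Cp and C4b of the acute phase list and Cd14 of the macrophage list were also higher. Ptx3, a secreted pentraxin that binds microbes and complement, was at -1.10 and -1.03 in YC, 0.17 and 0.30 in YD, -1.96 and -2.55 in NDL25 and -2.24 and -2.57 in YE. All 4 YC and YD pools were higher than all 4 others, and the YD pools were above the YC pools. The difference was 1.91 ± 0.18, or 3.77-fold, with 2.22 in session 1 and 1.15 in session 2, and a second probe gave 2.04. Cp, the copper-carrying plasma protein ceruloplasmin, had means of 0.96 ± 0.64 and -0.75 ± 0.48, and its differences in the sessions were 1.64 and 1.66. The complement gene C4b had 2.46 ± 0.23 and 1.17 ± 0.26. Cd14, with which phagocytes sense bacterial lipopolysaccharide, was at 0.65 to 1.23 in the 4 YC and YD pools and -0.66 to -0.22 in the others. Its difference of 1.5 ± 0.19 was 1.37 in session 1 and 1.78 in session 2.

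Cd74, the invariant chain that carries MHC class II molecules, had means of 1.68 ± 0.11 and 0.35 ± 0.33, with YE pool 1 the highest of its side at 0.78. Mfge8, a milk fat globule protein that links dying cells to phagocytes, was at 2.21 to 2.37 in YC and YD, 0.46 and 0.48 in NDL25 and 1.45 and 0.16 in YE. Its spots were saturated on 7 of the 16 arrays, so its levels there have only a lower bound. In bulk tumour RNA, fewer cells of a type and less RNA per cell cannot be told apart.

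The remaining leading genes had varied roles. Npy, the precursor of neuropeptide Y, was 3.72-fold higher, with means of 2.73 ± 0.69 and 0.84 ± 0.54. Its differences were 1.405 in session 1 and 2.554 in session 2. YE pool 1 at 1.54 came close to YD pool 1 at 1.83. Nqo1, a quinone reductase induced by oxidative stress, was at -0.54, -0.43, -0.44 and 0.35 in the YC and YD pools and at -2.12 to -1.85 in the other 4. Its 4 NDL25 and YE values lay close together, with an SD of 0.12, and the difference of 1.68 ± 0.31 was 1.83 in session 1 and 1.35 in session 2. Ntn1, the guidance cue netrin-1, differed by 1.59 ± 0.15, Lgr6, a receptor for R-spondins, by 1.56 ± 0.20 and Rflnb, a filamin-binding protein, by 1.59 ± 0.32. In sessions 1 and 2 Ntn1 had 1.89 and 1.14, Lgr6 1.73 and 1.07 and Rflnb 1.97 and 0.82. The dimmer probes of Ntn1 and Rflnb gave 0.16 and 0.39, both without overlap of the pools. Nepn, which encodes nephrocan, differed by 0.81 in session 1 and by 2.32 in session 2. Eno1, a glycolytic enolase, differed by 1.64 ± 0.85, but NDL25 pool 1 stood at -2.81 and without it the difference was 0.95. A dim second probe of Eno1 gave -0.07. Among genes named through their lists, the desaturase Fads1 differed by 1.34 ± 0.24 and the Wnt ligand Wnt5b by 1.18 ± 0.14, both by nearly the same amount in each session.

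**Figure D2:**
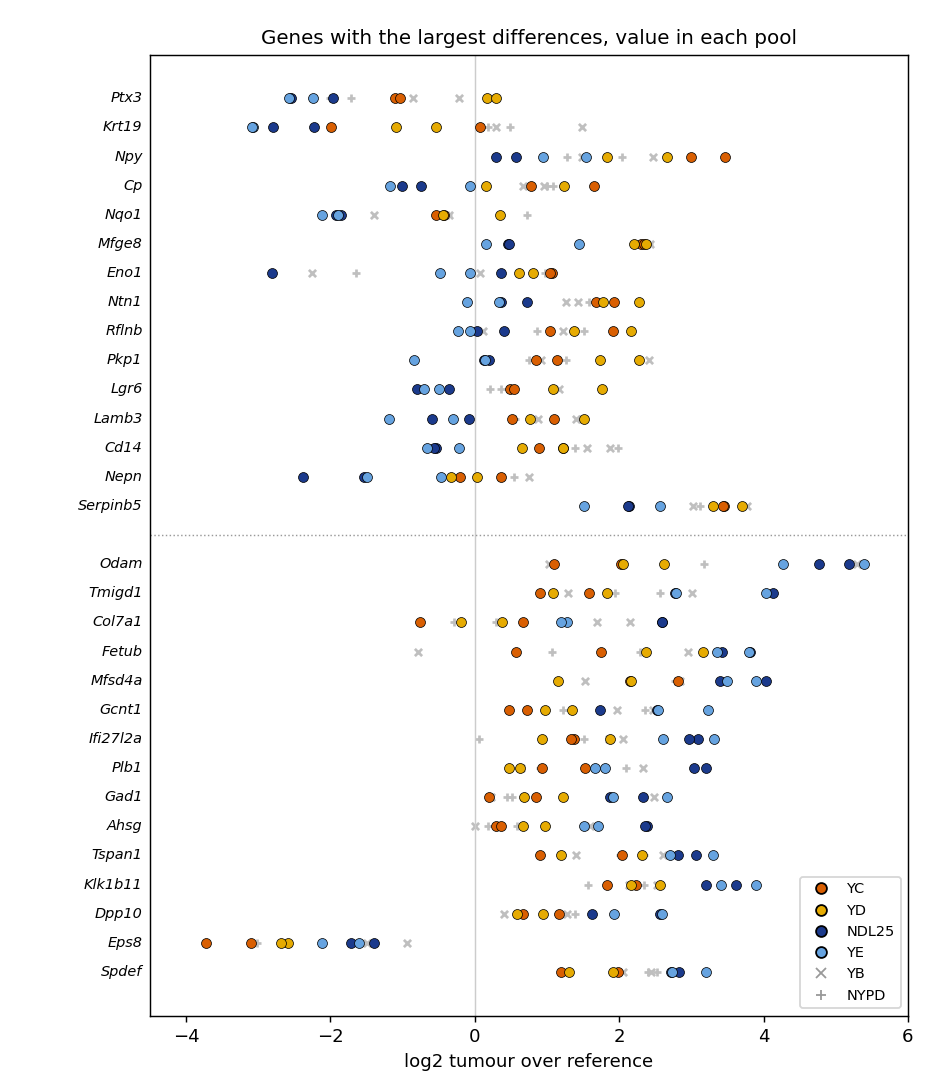
Log2 tumour over reference in each pool for the 15 genes with the largest higher and the 15 with the largest lower differences in YC and YD, with the YB and NYPD pools in grey. No YC or YD pool overlaps an NDL25 or YE pool in any of the 30 rows because the genes were picked for that; Odam has the widest gap in means, 1.95 against 4.90.

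Odam was lower in YC and YD by the largest amount of any gene with an ordinary symbol and no overlap. It encodes a secreted protein first described in enamel-forming cells. It was at 1.10 and 2.03 in YC, 2.62 and 2.05 in YD, 4.77 and 5.18 in NDL25 and 4.27 and 5.39 in YE. The difference was -2.95 ± 0.90, or 7.72-fold, with -2.59 in session 1 and -3.87 in session 2. YB pool 2 at 5.30 lay with NDL25 and YE, while YB pool 1 at 1.03 and NYPD pool 1 at 1.10 lay with YC and YD. Tmigd1, an immunoglobulin-domain membrane protein, had means of 1.34 ± 0.43 and 3.43 ± 0.75.

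Col7a1, the collagen of anchoring fibrils under epithelia, was at 0.67 and -0.76 in YC and 0.38 and -0.19 in YD. It was at 2.59 in both NDL25 pools and at 1.28 and 1.20 in YE, so the pools of the 2 strains on the high side stood apart from each other. YB with a mean of 1.93 lay with NDL25 and YE, and NYPD with 0.01 lay with YC and YD. Fetub and Ahsg, which encode the plasma proteins fetuin-B and fetuin-A, are neighbours on chromosome 16 and were both lower. Ahsg was at 0.30 to 0.97 in YC and YD and 1.52 to 2.39 in NDL25 and YE, with differences of -0.942 and -2.075 in the sessions. Fetub had means of 1.96 ± 1.09 and 3.60 ± 0.24, and YD pool 1 at 3.16 came close to YE pool 1 at 3.36.

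Spdef, Gcnt1, Tspan1 and Derl3 were also lower. Spdef, an ETS transcription factor of luminal and mucus-secreting cells, was at 1.98 and 1.20 in YC, 1.91 and 1.30 in YD, 2.83 and 2.72 in NDL25 and 2.73 and 3.2 in YE. All YC and YD pools were lower, by 1.49 in session 1 and 0.80 in session 2. Gcnt1, which branches mucin-type sugar chains, differed by -1.62 ± 0.31, and its other 2 probes gave -1.18 and -1.06. The tetraspanin Tspan1 differed by -1.36 ± 0.38 and by -1.80 on a second probe. Derl3, which helps remove misfolded proteins from the endoplasmic reticulum, had means of 1.12 ± 0.44 and 2.17 ± 0.31.

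Ifi27l2a, an interferon-inducible gene, differed by -1.61 ± 0.34 and by -1.72 and -1.20 on its other probes. Mfsd4a, a membrane transporter of the major facilitator family, differed by -1.64 ± 0.37 and by -0.95 and -0.57 on its other probes, again with no overlap. Gad1, an enzyme of GABA synthesis, differed by -1.46 ± 0.46 and Dpp10, a potassium channel subunit related to dipeptidyl peptidases, by -1.33 ± 0.29. For Plb1 and Eps8 the probes disagreed. Plb1, a phospholipase, differed by -1.54 ± 0.39 on its brightest probe and by 0.06, -0.58 and 0.05 on the others. Eps8, an actin-capping substrate of the EGF receptor, differed by -1.32 ± 0.20 on its brightest probe and by -0.10 on the other. In sessions 1 and 2 the brightest probes gave -0.86 and -2.195 for Plb1 and -0.93 and -2.17 for Eps8.

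Klk1b11, one of a cluster of kallikrein serine proteases on chromosome 7, was 2.52-fold lower in YC and YD. It was at 1.83 and 2.23 in YC, 2.57 and 2.16 in YD, 3.62 and 3.21 in NDL25 and 3.41 and 3.89 in YE. Its differences were -1.33 and -1.59 in the sessions. Klk1b21 and Klk1b26, the neighbouring separated genes, differed by -1.14 ± 0.22 and -1.17 ± 0.26. The rest of the family was looked at after these values were seen. Of 12 Klk1b genes measured, 11 were lower in all 4 YC and YD pools, against 6.41% of all genes, and the median difference was -0.677. Klk1b1, at -0.08, was the exception. Among 13 kallikreins outside the Klk1b group, Klk13 was lower without overlap at -1.06, Klk8 was higher without overlap at 0.40, and the median was 0.0243. The Klk1b genes are related copies, so 1 transcript may give signal on several of their probes and the 11 are not taken as independent. Their transcript and probe sequences were not compared.

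The promoters of the separated copies were compared. The 250 bases before the start of the 3 separated Klk1b genes are printed 5′ to 3′ on the plus strand, from the RefSeq table of build GRCm38.p6. They lie at chr7:43995627-43995876, chr7:44102042-44102291 and chr7:44012428-44012677 in the order shown. Capitals mark TGACNNNGC on either strand, the core letters of the antioxidant response element, which all 3 hold.
Klk1b11: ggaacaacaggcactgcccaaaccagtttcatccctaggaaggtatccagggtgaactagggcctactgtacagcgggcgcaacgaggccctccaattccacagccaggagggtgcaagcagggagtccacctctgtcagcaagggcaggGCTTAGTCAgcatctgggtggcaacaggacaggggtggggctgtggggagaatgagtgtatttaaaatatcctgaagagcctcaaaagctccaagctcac
Klk1b21: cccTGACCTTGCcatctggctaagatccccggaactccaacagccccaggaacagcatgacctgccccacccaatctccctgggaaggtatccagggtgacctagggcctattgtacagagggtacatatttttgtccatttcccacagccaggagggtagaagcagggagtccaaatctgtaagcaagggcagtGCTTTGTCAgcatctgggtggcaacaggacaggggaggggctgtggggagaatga
Klk1b26: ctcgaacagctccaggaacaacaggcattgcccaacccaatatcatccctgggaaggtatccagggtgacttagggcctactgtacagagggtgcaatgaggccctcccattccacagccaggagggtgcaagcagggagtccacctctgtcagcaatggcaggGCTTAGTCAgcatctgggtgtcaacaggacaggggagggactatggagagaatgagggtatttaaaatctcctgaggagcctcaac
At the best ungapped shift, Klk1b11 and Klk1b26 were identical at 215 of 236 positions (91.1%). Klk1b11 and Klk1b21 were identical at 154 of 205 (75.1%) and Klk1b21 and Klk1b26 at 159 of 219 (72.6%). TGACNNNGC was present in the 250 bases of 9 of the 31 lower separated genes with a promoter in the table, 3 of them these Klk1b copies. It was present in 3 of 25 of the higher ones and in 11.3% of all 14976 measured genes with a promoter. The STAT letters TTCNNNGAA were found in 1 of 31, 2 of 25 and 6.6%, and the NF-kB motif in 17 of 31, 15 of 25 and 54.1%. A match is a description of the letters only.

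**Figure D3:**
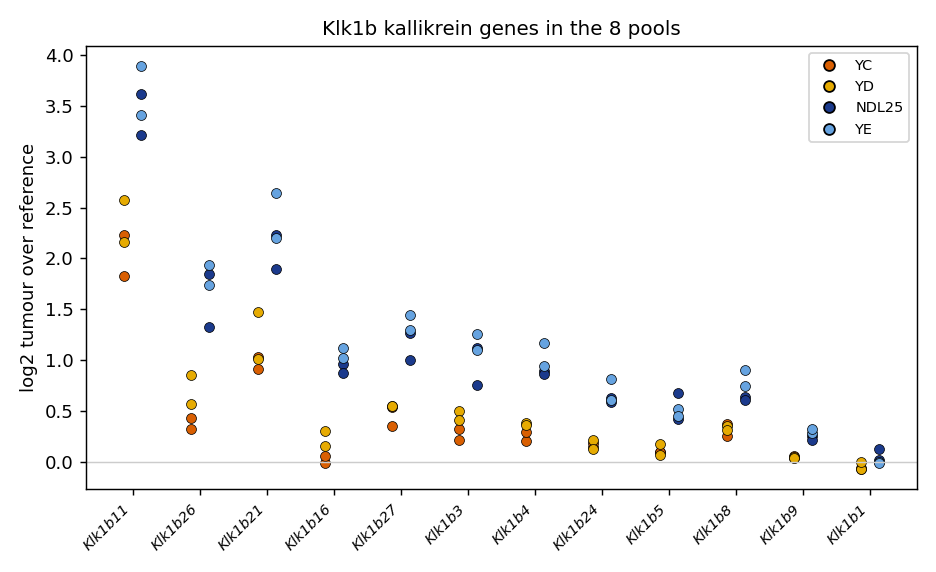
Log2 tumour over reference of the 12 measured Klk1b genes in each of the 8 pools, ordered by the difference, with YC and YD drawn to the left and NDL25 and YE to the right of each position. In 11 of the 12 genes every YC and YD pool lies below every NDL25 and YE pool, and Klk1b1 is the exception.

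The 34 lists of pathway and cell type genes had median differences from -0.21 to 0.315. In the list for oxidative phosphorylation, the respiratory chain and ATP synthase of mitochondria, the median difference was -0.21, against -0.00503 for all genes, and -0.208 and -0.222 in the sessions. Of its 22 members 7 were lower without overlap, against 6.41% of all genes, and 0 were higher without overlap, against 5.19%. Separated members numbered 0, against 0.176% higher and 0.134% lower among all genes. Cox7b, a subunit of cytochrome oxidase, was at 0.62 and 0.54 in YC, 0.83 and 0.57 in YD, 1.13 and 1.14 in NDL25 and 1.22 and 1.03 in YE. It was lower by 0.48 in session 1 and 0.52 in session 2. Its spots were saturated on 2 of the 16 arrays, so its levels there have only a lower bound. Cox5a differed by -0.55 ± 0.12, Ndufb5, of complex I, by -0.46 ± 0.07 and Uqcrfs1, of complex III, by -0.45 ± 0.10. Sdhb, of complex II, had 0.38 ± 0.25, with overlap. Dimmer probes of Cox5a and Cox7b gave -0.05, -0.08 and 0.14. Further probes of Atp5b, which were not dim, gave 0.43 and 0.88 with overlap, against -0.10 on the probe used. Those of Ndufa1 and Cycs gave -0.33, -0.205 and -0.198. In the authors' deposited ratios the list's median was -0.0805.

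In the list for DNA replication and mitosis, 26 of 30 members were below 0, against 14803 of all 28351 genes, with a median of -0.18, and -0.15 and -0.0988 in the sessions. The list's median levels by pool were -1.18 and -1.22 in YC, -1.27 and -1.28 in YD, -0.99 and -0.78 in NDL25 and -1.23 and -1.06 in YE. The sides overlapped, with YE pool 1 among the YC and YD pools. Overlap was absent for 4 members, all lower, against 6.41% of all genes. Rrm2, the small subunit of ribonucleotide reductase, was at -1.40 and -1.37 in YC, -1.33 and -1.71 in YD, -0.37 and 0.02 in NDL25 and -0.44 and -0.10 in YE. The YE and NDL25 pools were all well above the YC and YD pools, and its differences in the sessions were -1.21 and -1.23. The other 3 were Tyms, thymidylate synthase, at -0.50 ± 0.07 (other probes -0.49 and -0.03), the helicase subunit Mcm7 at -0.35 ± 0.07 and the transcription factor E2f1 at -0.29 ± 0.07. Mki67, a proliferation marker, had -0.02 in session 1 and -1.06 in session 2, with overlap, and Top2a had 0.32 ± 0.41.

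The acute phase list had the highest median, 0.315. Of its 20 members 4 were higher and 0 lower without overlap, against 5.19% and 6.41% of all genes. Past 2-fold were 3 of the higher ones, against 0.176% of all genes. These were Ptx3, Cp and C4b, with Socs3, a feedback inhibitor of cytokine receptors, as the fourth at 0.49 ± 0.18. The list's median ran from 0.177 without YC pool 1 to 0.414 without YE pool 1. The serum amyloid genes did not separate the sides: Saa1, Saa2 and Saa3 had -0.53, -0.12 and -0.04 in session 1 and 2.14, 1.80 and 1.44 in session 2. Serpina3g went the other way, at -3.62 in session 1 and 0.60 in session 2.

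In the list for MHC and antigen processing, 18 of 19 members were above 0, against 13548 of all 28351 genes. The median was 0.264, and 5 were higher without overlap, against 5.19% of all genes. The 5 were Cd74, H2-DMa at 0.71 ± 0.15, H2-Ab1 at 0.39 ± 0.11, H2-Aa at 0.31 ± 0.09 and the peptide loader Tapbp at 0.27 ± 0.09. The 3 dimmer probes of H2-Ab1 gave more, 1.01, 1.13 and 1.12, and a dimmer probe of H2-Aa gave 0.53, all without overlap. H2-DMa, H2-Ab1 and H2-Aa are of class II, the molecules of antigen-presenting cells. The class I genes H2-K1 and H2-D1 had -0.06 and 0.02, but were saturated on 16 and 15 of the 16 arrays, so a difference in them could not be measured well. The list's median was -0.0104 in session 1 and 0.512 in session 2, and proteasome subunits such as Psmb8, with -0.12 and 1.07, and Psmb9, with -0.335 and 1, were near or below 0 in the first.

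**Figure D4:**
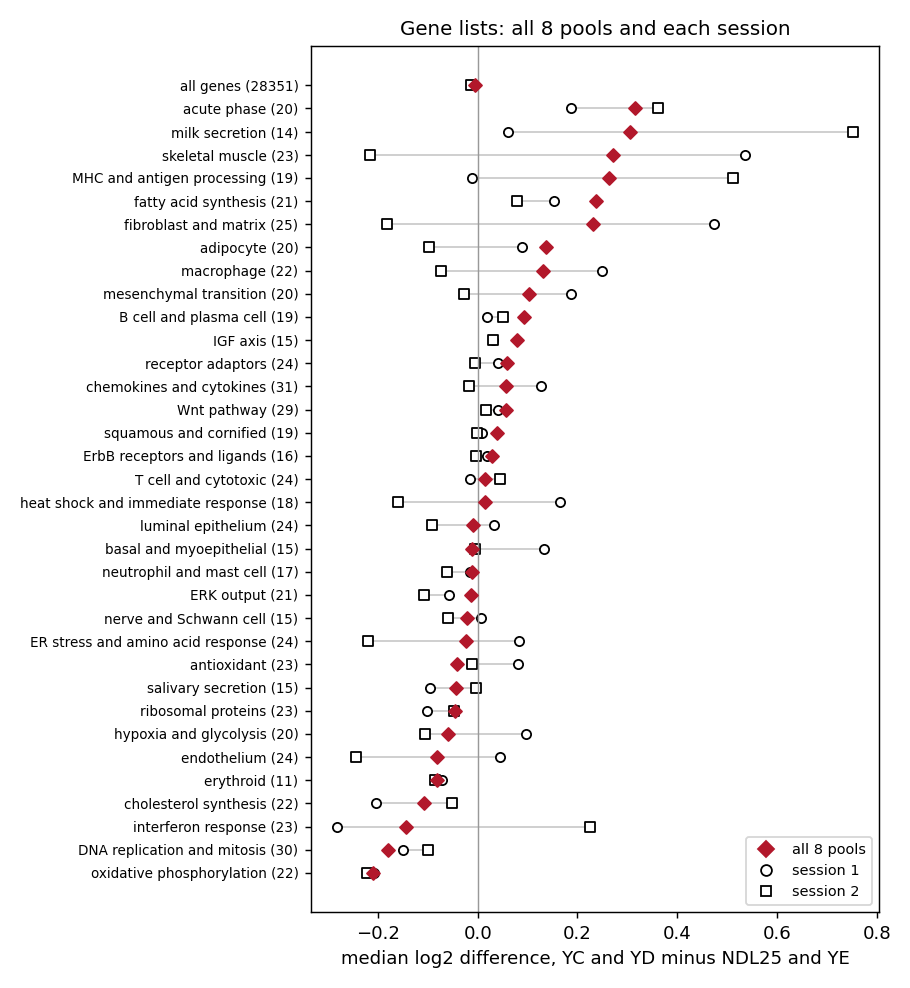
Median log2 difference of each gene list, YC and YD minus NDL25 and YE, over all 8 pools and within session 1 (YC and YD minus YE) and session 2 (YC minus NDL25), with the number of members measured in brackets. Oxidative phosphorylation lies at -0.21 with both sessions beside it, while fibroblast and matrix lies at 0.232 with 0.474 in session 1 and -0.181 in session 2.

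Several lists of other cell types took opposite signs in the 2 sessions. The fibroblast and matrix list had 25 of 25 members above 0, against 13548 of all 28351 genes. The list had a median of 0.232, but 0 members without overlap. Its median was 0.474 in session 1 and -0.181 in session 2, and its median levels by pool were -1.35 and -1.14 in YC, -0.98 and -1.18 in YD, -1.25 and -1.52 in NDL25 and -1.48 and -1.80 in YE. YE pool 2 was the lowest and YD pool 1 the highest, and the sides overlapped. Dcn, the matrix proteoglycan decorin, differed by 0.99 and -0.27 in the sessions, and a second probe gave -0.03 over all pools. Skeletal muscle genes had medians of 0.535 and -0.216, and Myh4, a fast muscle myosin, had 2.32 and -1.27, with both YE pools at 0.28 and 0.14 and the other 6 between 0.96 and 3.23. Interferon response genes went from -0.282 in session 1 to 0.225 in session 2, with 0 of 23 members without overlap. Of all genes, 5.19% were higher and 6.41% lower without overlap.

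The milk secretion list had a median of 0.305, from 0.0611 in session 1 to 0.753 in session 2. Of its 14 members 1 was higher without overlap, Mfge8, against 5.19% of all genes. Ltf, the iron-binding milk protein lactoferrin, was at 2.14 to 3.30 in YC and YD and 1.38 to 2.35 in the others, with YE pool 1 above YD pool 1. Its difference was 0.98 on this probe and 0.84 on a dimmer one, there without overlap. Csn1s1, a casein, had -1.46 and 0.22 in the sessions, and Lalba 1.08 and -0.04. The luminal epithelium list had a median of -0.00863 with 12 of 24 members on either side of 0. Its separated members, Krt19 and Spdef, differed in opposite directions, and Krt8 was higher without overlap by 0.25. Of 15 basal and myoepithelial genes, Krt14, Trp63, Krt5 and Cnn1 were higher without overlap, by 0.51, 0.38, 0.19 and 0.14, Dsc3 was lower, by 0.15, against 5.19% and 6.41% of all genes, and the list's median was -0.0104. A probe of Trp63 near background gave -0.04. Acta2 gave 0.20 on its brightest probe and 1.52 without overlap on another, with 0.11, 0.11 and -0.08 on the rest.

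In the leukocyte lists the members without overlap were about as frequent as among all genes, 5.19% higher and 6.41% lower. Of 22 macrophage genes, Cd14 alone was without overlap, and the median of 0.132 was 0.249 in session 1 and -0.0732 in session 2. T cell genes had a median of 0.0151, with Cd3g higher without overlap by 0.26 and Ifng lower by 0.09. Among 19 B cell and plasma cell genes, Xbp1 and Sdc1, which epithelial cells also express, were higher by 0.63 and 0.59 and Derl3 lower. The 17 neutrophil and mast cell genes, 24 endothelial genes and 20 adipocyte genes had medians of -0.0118, -0.0807 and 0.138, and 0, 2 and 0 of them were without overlap. The part of such cells in the differences above was not tested.

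Of 16 ErbB receptors and ligands, Erbb4 alone was higher without overlap, by 0.11, against 5.19% of all genes. Its other 3 probes gave 0.01, -0.01 and -0.09 with overlap. Egfr, the partner receptor of ErbB2, was at 0.09 and 0.65 in YC, 0.53 and 1.23 in YD and -0.06 to 0.16 in the others, with YC pool 1 inside that range. Of its other probes 0.80 and 0.18 were without overlap and 0.07 and -0.05 with overlap. The ligand genes Egf and Areg had -0.75 ± 0.20 and 0.62 ± 0.35, both with overlap. Of 24 adaptors and signalling proteins that dock on active receptors, 4 were higher and 3 lower without overlap, against 5.19% and 6.41% of all genes. Pik3r1, the regulatory subunit of PI3-kinase, was at -1.22 and -0.42 in YC, -1.33 and -0.51 in YD, -1.65 and -1.55 in NDL25 and -1.51 and -1.58 in YE. The 2 pools numbered 1 lay near the other side and the 2 numbered 2 well above it, and 3 more probes gave 0.49, 0.75 and 0.72, each without overlap. Shc1, an adaptor that links receptors to Ras, was higher by 0.31, Dok1 by 0.42 and Dok2 by 0.08. Plcg1, phospholipase C gamma, was lower by 0.49, Sos2 by 0.39 and Src by 0.23, but other probes overlapped, with -0.35 and 0.25 for Plcg1 and 0.07 for Src.

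The ERK output list had a median of -0.0143. Of its 21 members Etv5 and Fos were higher without overlap, by 0.92 ± 0.50 and 0.78 ± 0.20, and Spred2 was lower by 0.19, shares near those of all genes, 5.19% and 6.41%. Second probes overlapped, with -0.12 for Etv5 and -0.08 for Spred2. Nr4a1, an immediate early nuclear receptor, went against Fos: it was at 0.07 to 0.54 in YC and YD and 1.03 to 1.23 in the others, lower by 0.90 in session 1 and 0.65 in session 2. Bhlha15, a transcription factor of secretory cells on the salivary list, was lower by 0.85 ± 0.13, with 2.63 to 2.79 against 3.27 to 3.84, and a dimmer probe gave -0.15. In the list for the endoplasmic reticulum stress and amino acid response, 3 of 24 members were lower without overlap, against 6.41% of all genes. They were Derl3, Asns and Herpud1, by 1.05, 0.69 and 0.63, and Xbp1 alone was higher, against 5.19%. Of the 23 antioxidant genes 2 were higher and 3 lower without overlap, against 5.19% and 6.41% of all genes. Nqo1 and Prdx1, a peroxiredoxin, were higher, Prdx1 by 0.73. Nfe2l2, the regulator that induces such genes, was lower by 0.27, and Srxn1 and Gsr by 0.16 each, though a probe of each gave 0.09 and 0.29 with overlap.

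The interaction of side and session was tested over the 8 pools in limma. It sets YC and YD minus YE in session 1 against YC minus NDL25 in session 2. In it, session cannot be told apart from the strains compared or from the pool number of YC pool 1. YC pool 1 was the only YC or YD pool of session 2, so this arm held 1 pool, which is assumed to vary like the others. At a Benjamini-Hochberg adjusted p under 0.05, 0 of 28351 genes (0%) passed, with a smallest adjusted p of 0.164, while 3033 had an unadjusted p under 0.05. With the arrays of a single tumour dye, Cy5 or Cy3, 2 genes passed. Myh4, with a difference that changed by -3.59 between the sessions, had an adjusted p of 0.327, and Areg and Dcn had 0.40 and 0.576. A p that misses the threshold does not show that the sessions were alike.

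**Figure D5:**
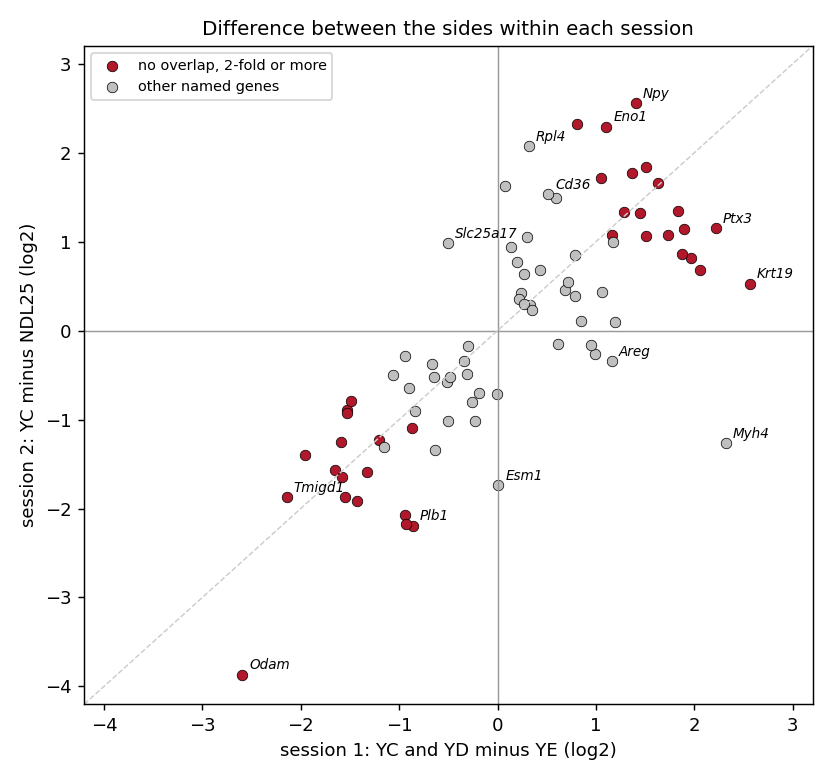
Log2 difference between the sides in session 1 (YC and YD minus YE) against session 2 (YC minus NDL25) for the 83 named genes, with separated genes in red and equal differences on the dashed line. The red points lie in the lower left or upper right quadrant because they were picked for no overlap of the pools; Myh4, at 2.32 and -1.27, lies in the lower right quadrant.

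Differences between the strains of a side were tested. The strains were put on one side because they lie together on overall expression, so low counts of calls within a side are in part set by that choice. Between YC and YD, 2 genes (0.00705%) passed limma's test with Benjamini-Hochberg adjustment over all genes, and 670 had an unadjusted p under 0.05. BC006965 was at 1.05 and 1 in the YC pools and 0.11 to 0.28 in all 10 other pools, YC minus YD 0.83, adjusted p = 0.0144. Slc25a17, a peroxisomal carrier, was at -1.65 and -1.56 in YC, -2.72 and -2.57 in YD, -2.65 and -2.62 in NDL25 and -1.80 and -1.76 in YE. Its YC minus YD difference was 1.04 (adjusted p = 0.0144), so for this gene YC lay with YE and YD with NDL25. Its other probes gave 0.85 and, with the pools above the reference, -0.22. The calls depended on settings and on the pools that estimate the spread. With 1 pool left out the number of calls changed, also for NDL25 and YE pools, which do not enter this difference. A strain left with 1 pool adds nothing to the estimate of spread. These changes therefore cannot be laid to single pools alone. With median centring, with session as a term and with only the 4 pools of these strains, 0 genes passed. With pool number as a block 3 passed, and same-numbered YC and YD pools deviated together with a correlation of 0.71.

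Between NDL25 and YE, 0 genes (0%) passed in limma, with a smallest adjusted p of 0.108 and 2149 genes at an unadjusted p under 0.05. Without YE pool 2 there was 1 gene. Col7a1 differed by 1.35 ± 0.44 (SE) between NDL25 and YE, with an adjusted p of 0.512 in limma. The session differed between these strains as well.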

How the data were processed

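RNA of 12 mammary tumour pools was measured on 24 two-colour Agilent arrays. The deposited spot intensities are those of Feature Extraction 7.5.1, per the file headers. A log ratio per pool, deposited by the authors, served as an alternative. Its log base is unstated, and R 2.3.0, limma and RMA are listed in the submitters' processing notes. A direct comparison with the computed log2 ratios of the deposited arrays gave correlations of at least 0.985 per pool. The medians of the deposited columns ran from -4.32e-05 to 0.0185.

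Here the mean intensities were corrected with normexp (offset 50) in limma 3.58.1 (R 4.3.3), normalized by loess within arrays and turned to tumour over reference, and the 2 arrays of a pool were averaged as 1 replicate. Control spots and 698 probes with a marked spot were left out. So were 312 probes that did not reach a minimum of 4 arrays with tumour signal well above background. Of several probes of a gene the brightest was kept, which removed 11813 probes and left 28351 genes. The 12 pools were fitted with 6 strain means (6 residual degrees of freedom, prior 1.76). The SE of a difference came from this fit. Strain contrasts and the interaction of side and session were tested with Benjamini-Hochberg adjustment over all genes at 0.05. Pools of different tumours were the replicates, so a p measures the spread between pools. The number of pools and arrays limits the precision. The scripts were tested on simulated data, in which pools varied independently, unlike the same-numbered YC and YD pools here. There YC minus YD recovered 82 and 94 of 100 genes moved by 1 and 2 on the log2 scale, with 17 false calls.

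Named genes were the 15 largest differences in each direction among genes without overlap and of the same sign in both sessions, up to 4 separated members or else the 2 largest of each list, Erbb2, and the genes past limma within a side. Further list members and the Klk1b family were named after their values were seen. The sides, members and lists were chosen with earlier results of these data known. Pool numbers paired some strains and not others, so no block was used: deviations of same-numbered pools correlated at 0.46 to 0.71 among YC, YD and YE but at 0.0093 to 0.062 between these and NDL25. Alternatives covered background correction, normalization, dye, filters, probes, deposited ratios, session, pool number and each pool left out.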

Additional observations from a re-analysis of the deposited data

Results flagged for a closer look

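In 10 of 234 sides checked, 1 of the 4 pools stood apart by Dixon's criterion, where chance gives about 1 in 20. Nqo1 was at 0.35 in YD pool 2, against -0.54 to -0.43 in the other 3 pools of that side. Pkp1 was at -0.84 in YE pool 2, against 0.13 to 0.20. Gbp3, an interferon-induced GTPase, was at 1.60 in YD pool 1, against 2.63 to 2.84. Tpm2, a tropomyosin, was at -1.82 in NDL25 pool 1, against -2.61 to -2.54. Pip, a secreted protein of exocrine glands, was at 1.56 in YC pool 1, against 0.04 to 0.30. Igfbp5, a binding protein of insulin-like growth factors, was at 4.32 in YE pool 2, against 3.27 to 3.44, with its spots saturated on 15 of the 16 arrays. Fos was at -1.54 in YD pool 2, against -2.33 to -2.19. The median of the basal and myoepithelial list was 0.37 in YD pool 1, against 0.07 to 0.11. That of the fatty acid synthesis list was 0.24 in YE pool 2, against 0.03 to 0.06. That of the cholesterol synthesis list was -0.50 in NDL25 pool 1, against -0.25 to -0.20.

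Of 117 results, 9 had every YC and YD pool above every opposing pool in session 1 and the YC pool below both NDL25 pools in session 2. In sessions 1 and 2 the differences were 0.99 and -0.27 for Dcn, 0.95 and -0.16 for Ucp1, 2.32 and -1.27 for Myh4, 0.61 and -0.15 for Egr2 and 1.16 and -0.35 for Areg. The interaction of side and session in limma gave these 5 genes adjusted p-values of 0.576, 0.634, 0.327, 0.554 and 0.4. The differences in mean list level, a list's level being its median in a pool, were 0.51 and -0.29 for skeletal muscle, 0.12 and -0.07 for ErbB receptors and ligands, 0.07 and -0.10 for chemokines and cytokines and 0.13 and -0.26 for the endoplasmic reticulum stress list. For the lists the difference between the sessions was not tested.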

How the results depend on the processing

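Higher separated genes numbered 50, but 78 with Agilent's processed signals, 112 in the deposited ratios and 50 to 76 with 1 pool left out; lower ones numbered 38, but 23 with scale normalization and 33 to 59 with 1 pool left out. With a minimum log2 difference of 0.58 there were 257 and 197, and with 0 there were 1471 and 1816. Within a session fewer pools must not overlap: session 1 had 132 higher and 80 lower separated genes, session 2 251 and 153, and session 1 without YC pool 2, an alternative added after seeing the data, 150 and 75. Genes without overlap numbered 4356 and 4847, 9656 and 11637, and 5594 and 6313 in these settings, and 1829 to 2332 and 2321 to 2795 with 1 pool left out. With the replicate block they numbered 2234 and 2955, separated genes 52 and 39, YC minus YD calls 3 and NDL25 minus YE calls 0, with pool numbers that paired YC, YD and YE but not NDL25. YC minus YD had 0 calls with median centring, with session as a term, within session 1 and with only the pools compared, 1 with the mean of probes, 4 with Cy5 arrays and 0 to 3 with 1 pool left out. NDL25 minus YE had 0 to 1 with 1 pool left out, and the interaction 2 with Cy5 or Cy3 arrays alone. Of 825 alternatives for the 36 named separated genes 48 moved the value by over 1 SD; their sign in settings that leave out pools was fixed by the choice of genes. The 34 lists changed sign in 85 of 781. Within-session fits could not be made for YC minus YD in session 2 or for NDL25 minus YE, and the deposited ratios gave no value for the ribosomal list. Other causes of these changes were not tested. Signal was limiting at the top of the range, where saturated spots give bounds.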
